A study of Arabidopsis thaliana with 18 samples.

Results

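The RNA of ceres-2 seedlings was compared with the RNA of Col-0 seedlings, across all genes and by gene family and pathway. The members are the 24100 genes, of 27628 listed, that have a log2 fold change of ceres-2 over Col-0 in RNA. They were set in families by words in their names and descriptions, and in pathways by their locus. ceres-2 is a mutant line of CERES in the Col-0 background, and it was set against Col-0, the wild type. Both were 9 days old, were grown under control conditions and were collected 5 h after lights on, at Zeitgeber time 5 (ZT5). Each genotype had 3 RNA libraries, which makes 6 of the 18 libraries of the series. The remaining 12 are RNA of ceres-1, a second mutant line, and ribosome footprints of all 3 genotypes. The sources used here do not give the kind of lesion, whether a line is 1 family of plants, or whether the 3 libraries came from separate plantings, so the p-values may measure technical spread alone.

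CERES is a plant protein with leucine-rich repeats that binds the cap-binding factor eIF4E, which brings mRNAs to the ribosome. Seedlings read light, day length and sugar supply through photoreceptors, PIF transcription factors and the circadian clock, and these set growth through auxin, ethylene and gibberellin. In Arabidopsis, shade and warmth raise HD-Zip II homeodomain factors and YUCCA enzymes, which make auxin, and darkness or lack of sugar raises a set of starvation genes.

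A gene in the authors' deposited table has a log2 fold change, where 1 is a doubling, and, for part of the genes, a p-value adjusted over many genes, which the authors computed with DESeq2. Called genes are those with an adjusted p below 0.05, and tested genes are those with any adjusted p. The table holds no value per library, so no SD, no standard error and no depth can be given, and levels cannot be compared between genes. The medians, counts and shares below were computed from the authors' deposited table. Values given for a gene are log2 fold changes in RNA of ceres-2 over Col-0 unless another quantity is named. In whole seedlings, fewer cells of a type and less RNA per cell cannot be told apart.

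Few transcripts were called. Of 19000 tested genes, 22 were called higher in ceres-2, which is 0.116% of those tested, and 4 were called lower, which is 0.0211%. The 22 that rose include ATHB2 and ATHB4, which are HD-Zip II factors, the auxin synthesis genes YUC5, YUC8 and YUC9, the ethylene synthesis gene ACS8 and NCED3, an enzyme of abscisic acid synthesis. The 4 that fell are CERES itself, MRD1, BBX16 and AT1G64500. The 22 higher genes spanned log2 fold changes of 0.73 to 5.77, and the 4 lower ones of -6.34 to -0.85, in the authors' deposited table. Over all tested genes the median per the authors' deposited table was -0.0048, the middle 50% lay between -0.15 and 0.14, and the middle 95% between -0.55 and 0.57. An adjusted p above 0.99 stood beside 18889 tested genes, 99.4%, so a gene that was not called is not shown to be unchanged. The 22 higher genes lay on all 5 nuclear chromosomes, with 5, 2, 5, 5 and 5 on chromosomes 1 to 5, and 3 of the 4 lower genes lay on chromosome 1.

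**Figure D1:**
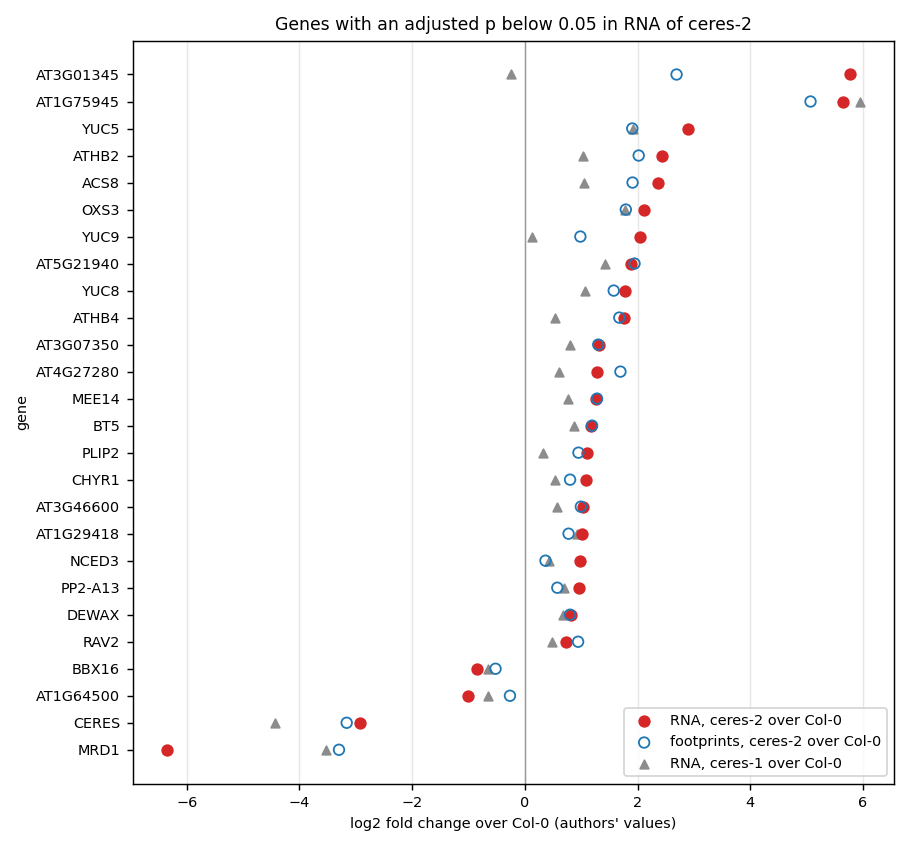
The authors' log2 fold changes over Col-0 (horizontal axis) of the 26 genes called in RNA of ceres-2 (vertical axis), in RNA of ceres-2 (filled circles), in footprints of ceres-2 (open circles) and in RNA of ceres-1 (triangles, which share the Col-0 RNA libraries with ceres-2). All 22 higher genes lie right of 0 in RNA and footprints of ceres-2, and AT3G01345 is the 1 of them that lies left of 0 in ceres-1. Of 18969 genes tested in RNA with a footprint fold change in ceres-2, 9716, 51.2%, had the same sign in both.

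CERES (AT4G23840), the mutated gene, had a log2 fold change of -2.92 in ceres-2 RNA in the authors' deposited table, a 7.59-fold lower level (adjusted p = 6.19e-05). Its transcript was thus lower in the libraries labelled ceres-2. The genes on either side, AT4G23820 and LACS4 (AT4G23850), had log2 fold changes of -0.06 and -0.02 per the authors' deposited table and were not called. The 11 other genes of the translation initiation list, which hold the cap-binding factors, the eIF4G scaffolds, eIF4A helicases and poly(A)-binding proteins, were all tested and none was called. Among them eIF4E, the partner of CERES, was at -0.10 and its isoform eIF(iso)4E at -0.09 in the authors' deposited table. The extremes of these 11 were EIF(ISO)4G2 at -0.22 and NCBP, a further cap-binding protein, at 0.14 per the authors' deposited table.

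The HD-Zip II homeodomain factors held the gene with the smallest adjusted p. ATHB2 (AT4G16780), which is induced by shade and promotes elongation, rose by 2.43 on the log2 scale, 5.39-fold, in the authors' deposited table (adjusted p = 1.82e-19). ATHB4 (AT2G44910), which acts with its relatives in shade growth and leaf polarity, rose by 1.77 (adjusted p = 0.0308) per the authors' deposited table. Of the 9 tested members of the subfamily these 2 were called higher and none lower, against 0.116% called higher among all tested genes. Called or not, 7 of the 9 were above 0. This list, too, was chosen with earlier results of these data known. The median in the authors' deposited table was 0.19, and 0.44 over members tested in RNA of both alleles and in footprints. Among members not called, HAT1 stood at 0.75 (adjusted p = 0.326), HAT3 at 0.44, HAT9 at -0.42 and HAT2 at 0.19 per the authors' deposited table. The wider group of 98 tested homeobox genes had a median of -0.08 in the authors' deposited table, and its 2 called members are again ATHB2 and ATHB4.

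In the list of shade and PIF pathway genes, 23 were tested and none was called. HFR1 (AT1G02340), a helix-loop-helix protein that holds PIF factors back, came nearest, at 1.03 (adjusted p = 0.0607) per the authors' deposited table. PAR1, another inhibitor of the shade response, stood at 0.83 (adjusted p = 0.588) and the PIF relative PIL1 at 0.64 in the authors' deposited table. HY5, a factor that promotes the light-grown form of seedling development, was at -0.63 per the authors' deposited table and was not called. The PIF genes themselves lay close to 0: PIF4, PIF5, PIF1, PIF3 and PIF7 had log2 fold changes of 0.02, 0.01, -0.01, 0.21 and -0.25 per the authors' deposited table. The median of the list was 0.04 per the authors' deposited table, against -0.0048 for all tested genes.

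Auxin synthesis had 3 called genes among 8 tested of 14 listed, all YUCCA flavin monooxygenases, which carry out the last step from tryptophan to auxin. Among all tested genes 0.116% were called higher, and the list was chosen with earlier results of these data known. YUC5 (AT5G43890) rose by 2.90 (adjusted p = 0.00774) in the authors' deposited table. YUC9 (AT1G04180) rose by 2.05 (adjusted p = 0.00197) per the authors' deposited table. YUC8 (AT4G28720) rose by 1.78 (adjusted p = 3.01e-04) in the authors' deposited table. These YUCCA genes had the largest changes among the tested members. The remaining 5 tested genes were not called, with YUC2 at 0.63, YUC6 at -0.59, YUC3 at 0.14, TAA1, which makes the YUCCA substrate, at -0.22 and its relative TAR2 at -0.08 per the authors' deposited table. The median of the 8 tested genes was 0.38 in the authors' deposited table, but it turned to -0.08 over all 11 members with a fold change, and to -0.15 over those tested in RNA of both alleles and in footprints, so it gives no direction for the pathway.

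Downstream of auxin synthesis no list had a called member. The 15 auxin receptor and transport genes were all tested, with a median of 0.08 per the authors' deposited table, where PID, a kinase that steers auxin carriers, was lowest at -0.17 and AUX1, an uptake carrier, was highest at 0.31. Aux/IAA proteins are repressors, which auxin both degrades and induces. Of 28 tested genes matched to them by words, which may include other genes, IAA2 came nearest, at 0.74 (adjusted p = 0.0607) in the authors' deposited table. In the authors' deposited table its relatives IAA30 and IAA13 stood at -0.94 and -0.56. SAUR genes, small auxin-induced proteins that promote cell expansion, were matched by words, which also took in the helix-loop-helix gene PAR1. This list had 33 of 48 tested members above 0 and a median of 0.20 per the authors' deposited table, with none called. The SAUR median was 0.32 over members tested in RNA of both alleles and in footprints. SAUR19 was at 1.25 (adjusted p = 0.318) and SAUR28 at 1.69 in the authors' deposited table. Whether the SAUR median differs from that of other genes was not tested.

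Ethylene synthesis had 1 called gene among 10 tested, against 0.116% called higher among all tested genes. ACS8 (AT4G37770), an auxin-induced ACC synthase, rose by 2.36 (adjusted p = 0.0495) per the authors' deposited table, just inside the threshold. ACS6, another synthase of the ethylene precursor, stood at 0.84 (adjusted p = 0.113) and ACS5 at 0.75 in the authors' deposited table. The 11 tested genes of ethylene signalling had no call and lay between -0.37 for the receptor gene ETR2 and 0.25 for the receptor gene ERS1 per the authors' deposited table. Gibberellin genes had no call among 14 tested, with the synthesis gene GA20OX2 at 0.95 and the repressor RGL2 at -0.81 in the authors' deposited table. Brassinosteroid genes had no call among 11 tested, which lay between -0.21 and 0.19 per the authors' deposited table. NCED3 (AT3G14440), which catalyses a key step of abscisic acid synthesis, rose by 0.98 (adjusted p = 2.80e-04) in the authors' deposited table.

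The list of dark and starvation genes stood higher than the other pathway lists, with a median of 0.43 over its 14 members, all tested, per the authors' deposited table, and 12 of them above 0. One was called: MEE14 (AT2G15890), whose product is known from ovules as a regulator of transcription, rose by 1.26 (adjusted p = 2.91e-09) in the authors' deposited table. AT3G15450 was at 1.67 (adjusted p = 0.469) and ASN1, an asparagine synthetase, at 0.83 (adjusted p = 0.261) per the authors' deposited table. SEN1, a senescence gene, stood at 0.76 and GPT2, a plastid sugar phosphate carrier, at 0.53 in the authors' deposited table. The lowest were BGLU30 at -0.43, a glucosidase, and BCAT2 at -0.38, an enzyme of branched amino acids, per the authors' deposited table. Members were listed by locus, and the response of each to darkness or sugar was not tested. This list, like the others, was chosen with earlier results of these data known, so its rank among the lists is no independent result. With 1 called member of 14, the list's median is a description and was not tested. Among all tested genes 0.116% were called higher.

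Circadian clock genes had no call among 20 tested, with a median of -0.10 in the authors' deposited table. CCA1, a morning repressor, was at -0.59 (adjusted p = 0.403) and its partner LHY at -0.37 per the authors' deposited table. The evening genes FKF1, PRR5 and GI stood at 0.63, 0.49 and 0.44 in the authors' deposited table. PRR9, which peaks in the morning, was at -0.43 per the authors' deposited table.

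**Figure D2:**
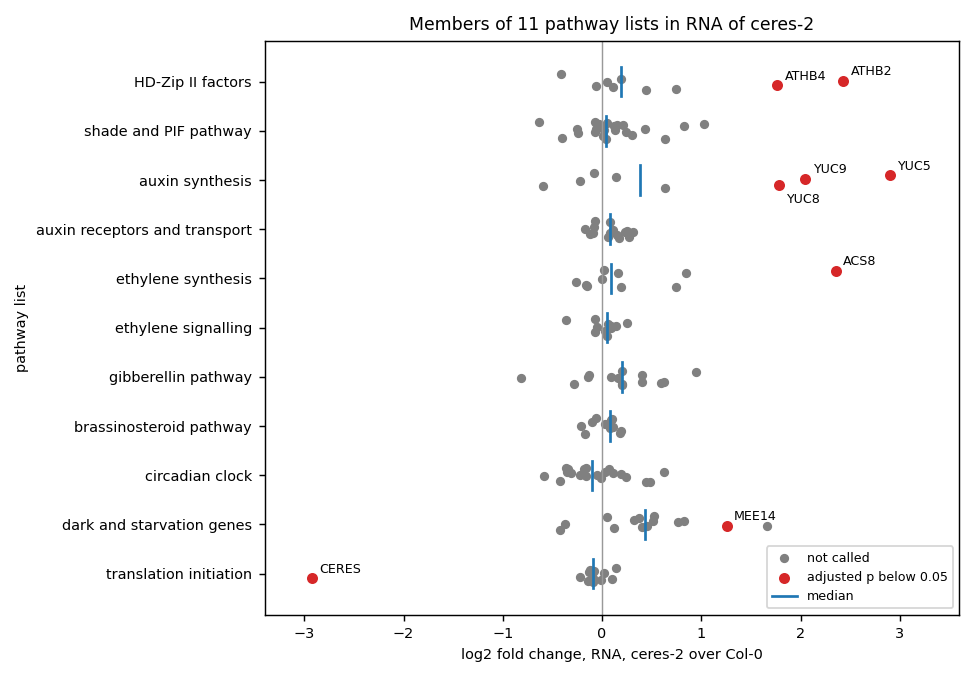
The authors' log2 fold change in RNA of ceres-2 over Col-0 (horizontal axis) for each tested member of 11 pathway lists (rows). Called genes are red and named, other members are grey, and blue bars are list medians, which reach 0.43 for dark and starvation genes, while the called YUCCA genes, ATHB2, ATHB4 and ACS8 lie at 1.77 or more.

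Promoters of the 22 higher genes were searched on both strands for 7 short motifs, among them the G-box CACGTG, which PIF and bZIP factors bind. In the 250 bases before the RefSeq start of the gene, 2 of the 22 held a G-box, 9.09%, against 7.45% of 18831 promoters of tested genes. The PIF-bound PBE-box CACATG was in 3 of 22, 13.6%, against 11.1% of all. It began 65 bases before the start of YUC9, 53 before that of YUC8 and 15 before that of ACS8. The auxin response element TGTCTC was in 2 of 22, 9.09%, against 10.6% of all. The evening element AAAATATCT, bound by clock factors, was in 1 of 22, 4.55%, against 2.47% of all, and this one was MEE14. The W-box core TTGAC was in 11, 50%, against 44.8%, the sugar-related TTATCC in 2, 9.09%, against 13.3%, and the HD-Zip site CAATNATTG in none, against 1.06%. A stretch can count for more than 1 motif where matches overlap.

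In a window of 1000 bases, chosen after the data had been seen, the G-box was in 6 of 22, 27.3%, against 16.0% of all promoters, the evening element in 5, 22.7%, against 7.20%, and TTATCC in 14, 63.6%, against 39.4%. The auxin response element was in 5, 22.7%, against 39.9%, and the PBE-box, the other PIF-bound word, in 7, 31.8%, against 37.9%. The W-box core was in 20, 90.9%, against 88.1%, and the HD-Zip site in 2, 9.09%, against 3.70%. These counts are small, describe letters and not bound sites, and were not tested. The 6 promoters with a G-box are shown, as 60 bases in the direction of the gene, because they hold the PIF-bound word and span the auxin gene YUC8, the starvation gene MEE14 and 4 genes outside those pathways. The sequences are from RefSeq (assembly TAIR10.1), 5′ to 3′, and capitals mark the G-box.
YUC8, chr4:14192094-14192153, plus strand: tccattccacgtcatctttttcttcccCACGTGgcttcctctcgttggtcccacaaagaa
AT5G21940, chr5:7251186-7251245, minus strand: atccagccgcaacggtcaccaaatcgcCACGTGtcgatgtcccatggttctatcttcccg
MEE14, chr2:6922795-6922854, minus strand: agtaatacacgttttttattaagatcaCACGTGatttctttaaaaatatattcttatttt
AT3G07350, chr3:2346836-2346895, plus strand: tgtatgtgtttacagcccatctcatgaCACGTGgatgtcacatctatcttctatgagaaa
PP2-A13, chr3:22602715-22602774, plus strand: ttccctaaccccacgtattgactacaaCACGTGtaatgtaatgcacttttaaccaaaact
PLIP2, chr1:575175-575234, minus strand: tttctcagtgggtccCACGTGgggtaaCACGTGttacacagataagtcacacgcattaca
The G-box shown begins 448 bases before the start in YUC8 and in AT5G21940, 666 in MEE14, 323 in AT3G07350 and 74 in PP2-A13. PLIP2 (AT1G02660) has 4 G-boxes within 1000 bases, of which the stretch holds 2.

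Of the 26 called genes, 13 fell in none of the families or pathway lists. AT5G21940, annotated as similar to a signalling histidine kinase, rose by 1.89 (adjusted p = 1.04e-13) in the authors' deposited table. OXS3 (AT5G56550), which gives tolerance to heavy metals and oxidative stress, rose by 2.11 (adjusted p = 7.02e-05) per the authors' deposited table. AT3G07350, of the DUF506 family of unknown function, rose by 1.31 (adjusted p = 1.76e-04) in the authors' deposited table. AT4G32480 carries the same DUF506 label and was 2.14-fold higher, just outside the threshold (adjusted p = 0.0523), per the authors' deposited table.

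Several other risers take part in transcription or protein turnover. RAV2 (AT1G68840), also called TEMPRANILLO 2, a repressor of flowering, rose by 0.73 (adjusted p = 0.0491) in the authors' deposited table. DEWAX (AT5G61590), an ERF factor that lowers cuticular wax in the dark, rose by 0.82 (adjusted p = 0.0272) per the authors' deposited table. These are the 2 called members among 89 tested AP2, ERF and DREB factors, whose median was -0.02 in the authors' deposited table. Among all tested genes 0.116% were called higher. AT3G46600, a GRAS family factor, rose by 1.03 (adjusted p = 3.01e-04) per the authors' deposited table. BT5 (AT4G37610), a BTB and TAZ domain protein, rose by 1.18 (adjusted p = 0.0296) in the authors' deposited table. CHYR1 (AT5G22920), a RING protein linked to drought responses, rose by 1.08 (adjusted p = 0.00184) per the authors' deposited table.

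PLIP2, a plastid lipase that acts on galactolipids, rose 2.15-fold (adjusted p = 0.00327) in the authors' deposited table. PP2-A13 (AT3G61060), a phloem protein 2 relative, rose by 0.96 (adjusted p = 0.00254) per the authors' deposited table. AT4G27280, an EF-hand calcium-binding protein, rose by 1.28 (adjusted p = 0.0495) and was the only called gene among 116 tested calmodulin-related genes in the authors' deposited table. Among all tested genes 0.116% were called higher. AT1G29418, annotated as a transmembrane protein, rose by 1.01 (adjusted p = 0.0347) per the authors' deposited table.

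The 3 largest changes among called genes belonged to AT3G01345, AT1G75945 and MRD1, and the table gives no counts behind them. AT3G01345, an expressed protein of unknown function, was at 5.77 (adjusted p = 0.00159) in ceres-2 per the authors' deposited table. In ceres-1, which shares the Col-0 RNA libraries, AT3G01345 was at -0.25 per the authors' deposited table. AT1G75945, a hypothetical protein, was at 5.65 (adjusted p = 0.0495) in ceres-2 and at 5.94 in ceres-1 per the authors' deposited table. MRD1 (AT1G53480), named for its fall in a methionine-rich mutant, fell by 6.34 (adjusted p = 0.00214) in ceres-2 and was at -3.52 in ceres-1 per the authors' deposited table. HEI10, the gene after MRD1, was at -0.88 in the authors' deposited table and was not called. Among the genes directly beside the 26 called ones, 50 had a fold change, with a median of -0.02 per the authors' deposited table. Of these, 46 had an adjusted p and none was called. The highest of these neighbours was AT2G15880 beside MEE14, at 1.42 in the authors' deposited table.

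The 2 remaining lower genes changed less. AT1G64500, a glutaredoxin family protein, fell by 1.02 (adjusted p = 0.0349) per the authors' deposited table, as the only called gene among 120 tested thioredoxins and glutaredoxins. BBX16 (AT1G73870), a B-box zinc finger protein related to CONSTANS, fell by 0.85 (adjusted p = 0.0196) in the authors' deposited table. It was the only called gene among 37 tested B-box and CCT domain genes, whose median was -0.13 per the authors' deposited table. Among all tested genes 0.0211% were called lower. BBX30 and BBX31, small B-box proteins that act against HY5, stood at -0.84 and -0.81, and BBX8 at 0.71, in the authors' deposited table, without a call.

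Just outside the threshold, 18 genes had an adjusted p of 0.05 to 0.2, of which 14 were above 0 and 4 below. Apart from HFR1, IAA2, ACS6 and AT4G32480, they include the flowering repressor TEM1 at 0.72, its relative RAV1 at 0.69, the ethylene-responsive repressor ERF4 at 0.71 and TCH3, a touch-induced calmodulin-like protein, at 0.99 per the authors' deposited table. RAV2, just inside, and these RAV relatives, just outside, had similar log2 fold changes in that table. KMD3 (AT2G44130), an F-box protein that targets type-B response regulators of cytokinin signalling, was at 0.77 (adjusted p = 0.15), and AT3G43850, of unknown function, at 2.11 (adjusted p = 0.118) in the authors' deposited table. The 4 below 0 were AT2G15020 at -0.91, the histone gene HIS4 at -0.86, the remorin gene REM4.2 (AT2G41870) at -0.73 and the calcium-binding protein gene CP1 at -0.70 per the authors' deposited table.

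Ribosome footprints of ceres-2 come from other libraries than the RNA, though whether both were made from the same extracts is not stated. In footprints 106 of 14453 tested genes were called higher in ceres-2, 0.733%, and 166 were called lower, 1.15%. Of the 22 genes that rose in RNA, 15 had an adjusted p in footprints and 12 of these were called higher there, while none was called lower. The medians of the 22 were 1.30 in RNA and 1.29 in footprints of the authors' deposited table. Gene by gene, the log2 fold change in footprints minus that in RNA had a median of -0.22 for these 22. For the 4 lower genes this median was 0.54. ATHB2 had a footprint log2 fold change of 2.02 (adjusted p = 3.89e-25) in the authors' deposited table. AT4G27280 was at 1.69 (adjusted p = 5.03e-07), AT3G07350 at 1.30 (adjusted p = 9.76e-12) and RAV2 at 0.94 (adjusted p = 1.63e-09) in footprints of the authors' deposited table. ATHB2 thus had the largest footprint change of the 12. YUC8 was at 1.58 (adjusted p = 4.63e-05) in footprints of the authors' deposited table.

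The 3 risers tested but not called in footprints were NCED3, at 0.37 (adjusted p = 0.551), CHYR1, at 0.80 (adjusted p = 0.430), and PP2-A13, at 0.58 (adjusted p = 0.271), per the authors' deposited table. YUC5, YUC9, ACS8 and ATHB4 had footprint log2 fold changes of 1.90, 0.98, 1.91 and 1.67 without an adjusted p in the authors' deposited table. Of the 4 lower genes none was called in footprints, where BBX16 was at -0.52 (adjusted p = 0.284) and AT1G64500 at -0.27 (adjusted p = 0.667) per the authors' deposited table. CERES and MRD1 were at -3.16 and -3.30 there, without an adjusted p in the authors' deposited table. Of the 14 genes above 0 just outside the RNA threshold, 13 were tested in footprints and 11 were called higher there, among them AT4G32480 at 1.65 (adjusted p = 9.69e-11) and IAA2 at 0.75 (adjusted p = 5.91e-05) per the authors' deposited table. None of the 4 below 0 was called in footprints.

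**Figure D3:**
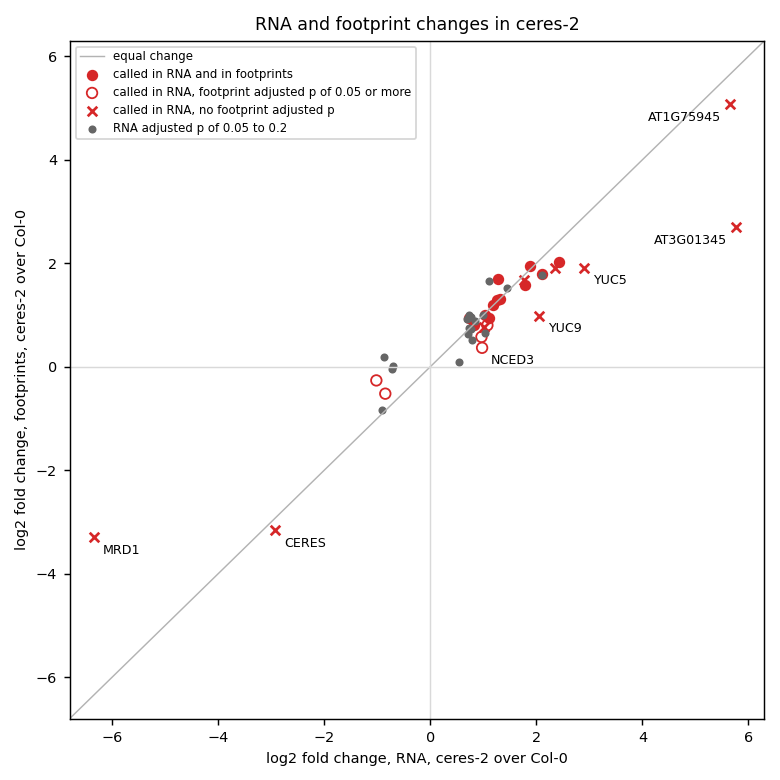
The authors' log2 fold changes of ceres-2 over Col-0 in RNA (horizontal axis) and in footprints (vertical axis) for the 26 genes called in RNA (red) and the 18 with an RNA adjusted p of 0.05 to 0.2 (grey). Filled red points were also called in footprints, open ones were tested there and not called, crosses had no footprint adjusted p, and the line marks equal change, from which AT3G01345 and MRD1 lie far, at 2.69 and -3.30 in footprints.

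ceres-1 RNA was set against the same Col-0 RNA libraries, so the values of both alleles are given side by side without a comparison. ATHB2 was at 2.43 in ceres-2 and 1.03 in ceres-1, and ATHB4 at 1.77 in ceres-2 and 0.54 in ceres-1, per the authors' deposited table. YUC5, YUC8 and YUC9 were at 2.90, 1.78 and 2.05 in ceres-2, and at 1.91, 1.07 and 0.13 in ceres-1, per the authors' deposited table. ACS8 was at 2.36 in ceres-2 and 1.05 in ceres-1, and NCED3 at 0.98 in ceres-2 and 0.42 in ceres-1, per the authors' deposited table. BBX16 was at -0.85 in ceres-2 and -0.66 in ceres-1 per the authors' deposited table. CERES itself lay further from 0 in ceres-1, at -4.43, than in ceres-2, at -2.92, per the authors' deposited table. Of the genes called in ceres-2, MEE14, OXS3, CERES and MRD1 were also called in ceres-1 (adjusted p = 0.0127, 0.0135, 5.62e-08 and 1.53e-14). No contrast between the alleles is in the table, and their difference was not tested.

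Words in gene names and descriptions were used to match 44 gene families. In 39 of them no member was called, where 0.116% of all tested genes were called higher and 0.0211% lower. With so few calls among all genes, a family without a call is not thereby set apart. The medians of 7 lay 0.1 or more from 0 in the authors' deposited table, 3 above and 4 below, where all tested genes had -0.0048. These were the JAZ, SAUR and nitrate and peptide transporter families above 0, and the B-box, heat shock, late embryogenesis abundant and pentatricopeptide repeat families below. The JAZ median turned below 0, to -0.10, when only the description column was searched. Over genes tested in RNA of both alleles and in footprints, the late embryogenesis abundant median was -0.03 and the pentatricopeptide repeat median -0.07, both within 0.1 of 0, and the F-box median was 0.02. Large housekeeping groups lay close to 0: 357 tested ribosomal protein genes had a median of -0.01, and 117 genes of light harvesting and the photosystems had 0.02, per the authors' deposited table. Pentatricopeptide repeat proteins, which process organelle RNA, had 82 of 248 tested members above 0, 33.1%, and a median of -0.11 in the authors' deposited table, against 49.1% above 0 among all tested genes. Heat shock proteins and their relatives had 34 of 112 above 0, 30.4%, with a median of -0.13, and HSP18.2 at -0.89, per the authors' deposited table. Nitrate and peptide transporters had 22 of 26 above 0 and a median of 0.12 in the authors' deposited table, with the nitrate transporter gene NRT2:1 at 0.74. F-box proteins had 113 of 173 above 0, 65.3%, and a median of 0.09 per the authors' deposited table. Apart from BBX16 in the B-box family, no gene of the families named here was called. Members of a family share sequence and regulation, so these shares are descriptions of 6 libraries.

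Transcripts encoded in the organelles lay mostly above 0. Of 88 tested chloroplast-encoded genes 77 were above 0, with a median of 0.26 in the authors' deposited table and no call, and of 79 tested mitochondrion-encoded genes 51 were above 0, with a median of 0.12. The smallest adjusted p among chloroplast genes was 0.403, for ATCG00630 at 0.62 and ATCG00570 at 0.52, per the authors' deposited table. The sources used here do not say how rRNA and organelle RNA were handled in each library, and its part in these values was not tested. Markers of plant parts did not differ by a call: LHCB1.1, CAB1 and RBCS1A of the shoot were at 0.10, -0.03 and -0.0039, and RHD6, CASP1, PHT1.1 and WER of the root at 0.36, 0.30, 0.23 and -0.05, per the authors' deposited table. Without levels, the table cannot show which plant parts the seedling samples hold. The seed storage genes CRU3, OLEO1 and CRA1 were at -0.43, -0.38 and -0.21 per the authors' deposited table, and their part in the other results was not tested.

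**Figure D4:**
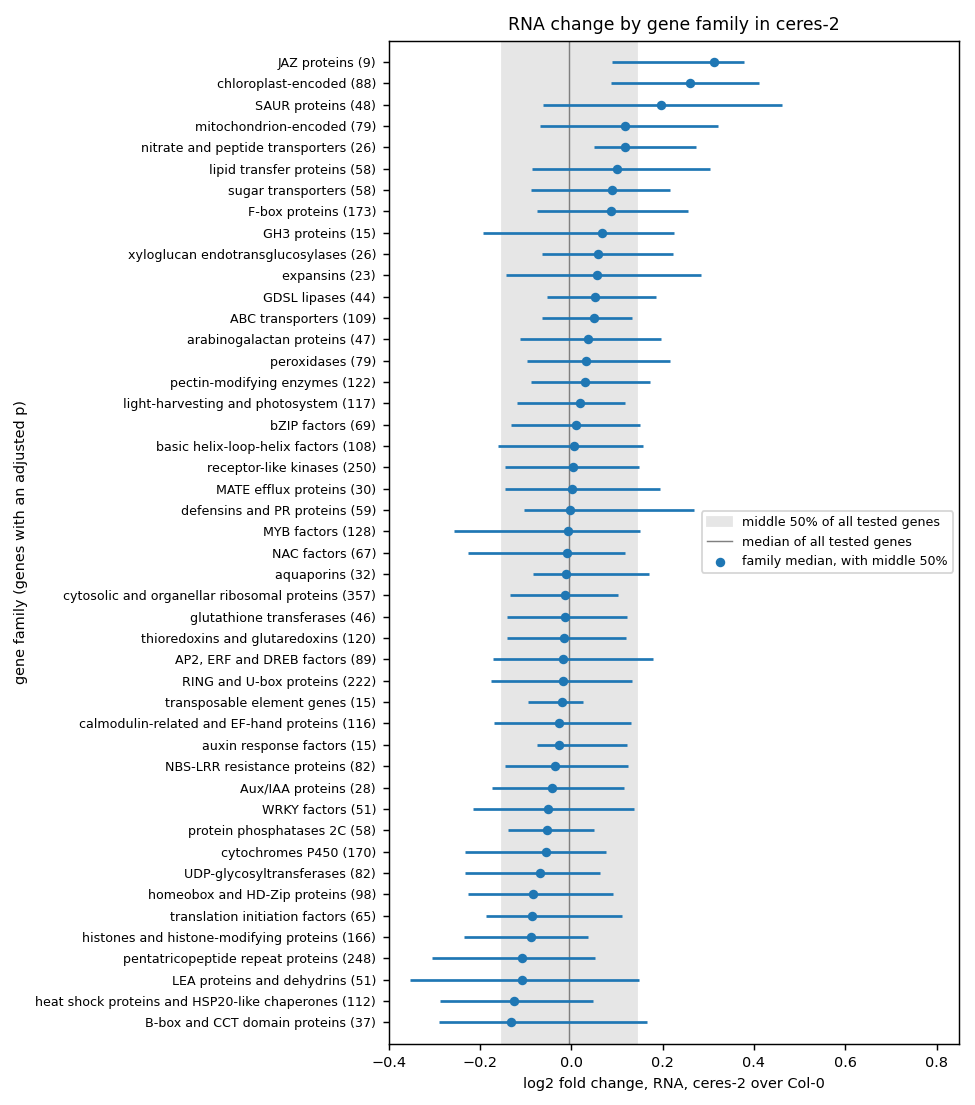
Median (point) and middle 50% (line) of the authors' log2 fold changes in RNA of ceres-2 over Col-0 (horizontal axis) for 44 gene families and for the chloroplast-encoded and mitochondrion-encoded genes (rows, number of tested genes in brackets), against the median and middle 50% of all 19000 tested genes (grey). Chloroplast-encoded genes sit at 0.26 and B-box genes at -0.13, and the middle 50% of every row overlaps the grey band.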

How the data were processed

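RNA and ribosome footprints were sequenced from seedlings of 3 genotypes using a library kit made for ribosome profiling, per the labels' protocols. RNA libraries were taken as those not labelled as footprints, since the file headers name total RNA. Per the submitters' processing notes, the authors used TopHat2 2.1.0, featureCounts 1.6.2 and DESeq2. The sources used here do not give the build, the annotation, the strand setting, or whether multi-mapped reads were counted and fold changes shrunk. Without strand, reads of overlapping genes cannot be told apart. The log2 fold changes and adjusted p-values are the authors', deposited as one table per the file headers, with 1 value per comparison. No value per library was used, so the planned edgeR fit was not made.

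Families were matched on words in the names and descriptions (a gene whose text only mentions a family is included), and 1410 genes had no usable description. Pathway members were matched by locus. Of 27628 identifiers, 27420 matched NCBI RefSeq (TAIR10.1), used for symbols, neighbours and promoter letters. The authors' alignment build may differ. Members, lists and motifs were chosen with earlier results of these data known. Named were all called genes, those with an adjusted p of 0.05 to 0.2, up to 4 more per list by smallest adjusted p and then largest change, CERES with its neighbours, and markers. Further genes named (such as the PIF genes, LHY, neighbours of MRD1 and MEE14, and large changes without a call) were chosen after their values were seen. Summaries used Python 3.11.15 and pandas 2.3.3 and were tested on simulated data.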

Additional observations from a re-analysis of the deposited data

How the results depend on the processing

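The count of genes called higher in ceres-2 RNA was 22 at an adjusted p below 0.05, 14 below 0.01, 26 below 0.1, 18 with a log2 fold change of at least 1, and 22 among genes tested in both alleles. The count called lower was 4, and 2, 4, 3 and 4 under the same settings. Among 60 list medians, the sign turned in 6 when all genes with a fold change were used, in 8 when a test in both alleles and in footprints was asked for, and in 2 after centring. The largest of these was the auxin synthesis list, given above. With the description column alone, added after seeing the data, 6 of 44 family medians turned, among them the JAZ repressors (0.31, against -0.10 then) and the Aux/IAA genes (-0.04, against 0.07 then). Leaving out libraries could not be run. No paired analysis was possible because only 1 value per gene and comparison was at hand. Depth is unknown, and genes without an adjusted p were not read as changed or unchanged.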

Other observations

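Large log2 fold changes were more common than calls. Of 158 tested genes at 1 or more in either direction, 95 were higher and 63 lower in ceres-2, and 21 were called. Of 13 tested genes at 2 or more, 9 were called. In the authors' deposited table the others included an F-box gene, AT1G47300, at -3.34, AT5G28237, annotated as a pyridoxal phosphate enzyme, at -2.84 and AT5G10660, a calmodulin-binding relative, at -2.23.

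Several genes with known roles in stress and nutrient responses stood at 1.5 or more in RNA of ceres-2 without a call, in the authors' deposited table. ORA47, an ERF factor of jasmonate responses, was at 1.76 in RNA and 1.51 in footprints, and BT2, a BTB and TAZ domain relative of BT5, at 1.71 in RNA and 1.52 in footprints, in the authors' deposited table. BHLH100, a factor of iron deficiency, was at 1.62 in RNA and 0.85 in footprints, and HR4, a relative of the mildew resistance gene RPW8, at 1.78 in RNA and 0.31 in footprints, in the authors' deposited table. A further 5100 genes had a fold change and no adjusted p, and 2025 of them, 39.7%, lay at 1 or more in either direction, against 0.832% of tested genes.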
